A study of Mus musculus with 6 samples.

Results

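The ID genes Id1, Id2 and Id3 encode inhibitors of DNA binding and differentiation. They were taken by symbol from the platform annotation, as 3 of the 12393 genes with a singly annotated probe set, and they are read by 5 of the 22690 probe sets. Id1 and Id3 have 1 probe set each and Id2 has 3. The members were chosen with earlier results of these arrays known, so their own signals and ratios are given as a description, with no test.

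The arrays came from Ba/F3 cells, a mouse pro-B cell line that depends on interleukin 3 (IL3) unless an active kinase takes its place. Cells carried a pMSCV vector for the oncogene ETV6-PDGFRB, the same vector for FIP1L1-PDGFRA, or the empty vector. Both oncogenes join a partner protein to the kinase part of a PDGF receptor. The oncogene lines had been selected by growth without IL3, whereas the empty-vector cells received IL3. Every line was hybridised untreated and after 4 h with 100 nM Glivec (imatinib, an inhibitor of PDGF receptor, ABL and KIT kinases), in medium with 10% serum. That makes 6 arrays, 1 for each line and treatment, and no group has a replicate. Whether a line was 1 clone or a pool is not given in the sources used here.

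ID proteins have a helix-loop-helix domain, through which they pair with other proteins, but lack the basic region that contacts DNA. They hold E proteins, the products of Tcf3, Tcf4 and Tcf12, in pairs that cannot bind DNA. In early B cells, E proteins switch on genes of the lineage, and high ID levels oppose them. Bone morphogenetic proteins (BMPs) induce Id genes through SMAD proteins in many cell types. In Ba/F3 cells, IL3 is known to induce Id1 through the transcription factor STAT5. The arrays ask which transcripts depend on the fusion kinases, with imatinib on IL3-grown cells as the control for the drug.

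Signals were linear intensities, and a level was read only above a floor of 20.1, the median over arrays of each array's 50th percentile. Of all 12393 genes, 7018 exceeded it on at least 1 array. The drug moved the IL3-grown cells little, with an SD of 0.19 for the log2 ratios of 6674 genes. That SD serves below as the only measure of scatter between 2 arrays. It comes from 1 pair, contains any effect of imatinib on IL3-grown cells, and holds no repeat culture. Pro-B markers were partly present, with 5 of 11 above the floor on some array. Ptprc (the pan-leukocyte receptor CD45) was at 606 to 892 on the 6 arrays. Cd79a and Cd79b, of the B cell receptor complex, were at 37.2 to 63.0 and at 45.3 to 121. The B-lineage factor genes Ebf1 and Pax5 and the surrogate light chain gene Vpreb1 were below the floor on every array, as were the listed Kit, Il7r and Cd24a. Of 12 T, NK and innate lymphoid markers, 1 exceeded the floor on any array. Of 8 erythroid markers 4 did so, and of 9 myeloid markers 3 did.

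Id1 was more than 5-fold lower with imatinib in both fusion lines and stood at one level in IL3-grown cells. Its only probe set gave a signal of 267 in untreated ETV6-PDGFRB cells and 50.4 with imatinib. In FIP1L1-PDGFRA cells it gave 361 untreated and 63.5 with imatinib. In IL3-grown vector cells it gave 418 on both arrays. The lowest 2 signals were therefore those of the treated fusion cells, and the other 4 lay at 267 or above. In such bulk RNA, fewer cells with the transcript and less of it per cell cannot be told apart.

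With imatinib Id1 was 5.30-fold lower in ETV6-PDGFRB and 5.69-fold lower in FIP1L1-PDGFRA cells, or -2.41 and -2.51 on the log2 scale. In the IL3 pair the log2 ratio was -0.003. Id1 ranked 22nd from the lowest of 6852 genes in ETV6-PDGFRB cells and 21st of 6743 in FIP1L1-PDGFRA cells. The log2 ratios of the fusion lines differed by 0.10 for Id1, and no test of that difference can be made with 1 array per group. Among genes with IL3 signals close to those of Id1, the central 95% of the IL3 pair's log2 ratios ran from -0.20 to 0.21.

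**Figure D1:**
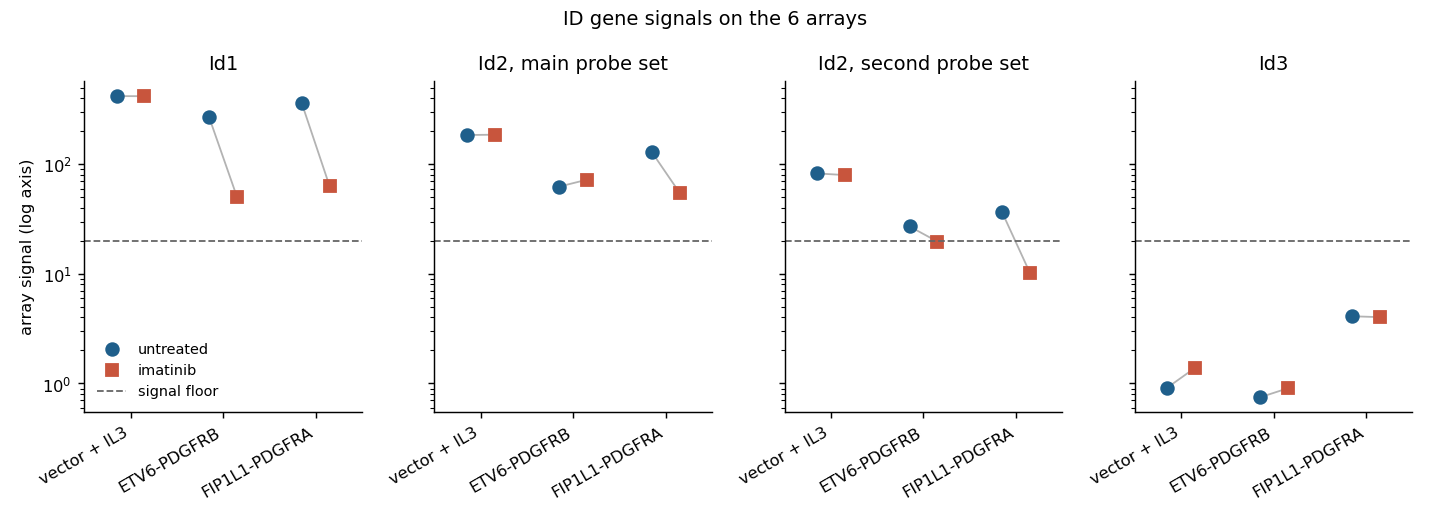
Signal on each of the 6 arrays for Id1, the main and second probe sets of Id2, and Id3, on a log axis, with circles for untreated and squares for imatinib arrays of each line. Grey lines join the 2 arrays of a line and the dashed line is the floor of 20.1. Id1 goes from 267 to 50.4 and from 361 to 63.5 in the fusion lines, and Id3 lies below the floor throughout.

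Id2 followed another pattern, with a low level in ETV6-PDGFRB cells already before the drug. Its brightest probe set, used for all ratios unless stated, gave 185 in untreated IL3-grown vector cells and 186 with imatinib. In ETV6-PDGFRB cells it gave 62.6 untreated and 72.3 with imatinib. In FIP1L1-PDGFRA cells it gave 129 untreated and 54.8 with imatinib. The 3 lowest signals, 54.8 to 72.3, were thus both ETV6-PDGFRB arrays and the treated FIP1L1-PDGFRA array.

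With imatinib, Id2 was 2.35-fold lower in FIP1L1-PDGFRA cells, a log2 ratio of -1.23 and 120th from the lowest of 6743 genes. In ETV6-PDGFRB cells the log2 ratio was 0.21, but it was -0.096 with scaling to the hybridization controls and negative on the second probe set. The value of 0.21 lies inside the central 95% of IL3-pair ratios at the signals of these 2 arrays, -0.40 to 0.45. The log2 ratio in the IL3 pair was 0.01. The difference between the fusion lines in Id2 response was 1.44 on the log2 scale, and 7 of 6640 genes had a higher one. A difference of more than 2-fold in that direction was seen for 0.693% of genes.

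The second probe set of Id2 was dimmer and again read highest in IL3-grown cells. Untreated and treated, it read 82.5 and 79.7 with IL3, 27.1 and 19.7 with ETV6-PDGFRB, then 36.5 and 10.2 with FIP1L1-PDGFRA. Both treated fusion arrays were below the floor, so the drop was at least 1.35-fold in ETV6-PDGFRB and at least 1.82-fold in FIP1L1-PDGFRA cells. The probe sets thus disagreed on the direction in ETV6-PDGFRB cells and shared it in FIP1L1-PDGFRA cells. The remaining Id2 probe set read 4.64 to 8.58 and was below the floor on every array.

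Id3 was below the floor on all 6 arrays, at 0.747 to 4.10, and has no ratio. The fourth family gene, Id4, which is no member, was also below it on all 3 of its probe sets, at 0.591 to 6.43. Of the 3 members, 2 were therefore measured.

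Against the background of each pair, 1 of 2 measured members, Id1, was at least 2-fold lower in ETV6-PDGFRB cells, where 2.86% of genes were. In FIP1L1-PDGFRA cells both were, where 2.97% of genes were. In the IL3 pair neither passed 2-fold, where 0.0599% of genes were lower. The members were chosen with these contrasts known, so nothing is read from those counts.

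**Figure D2:**
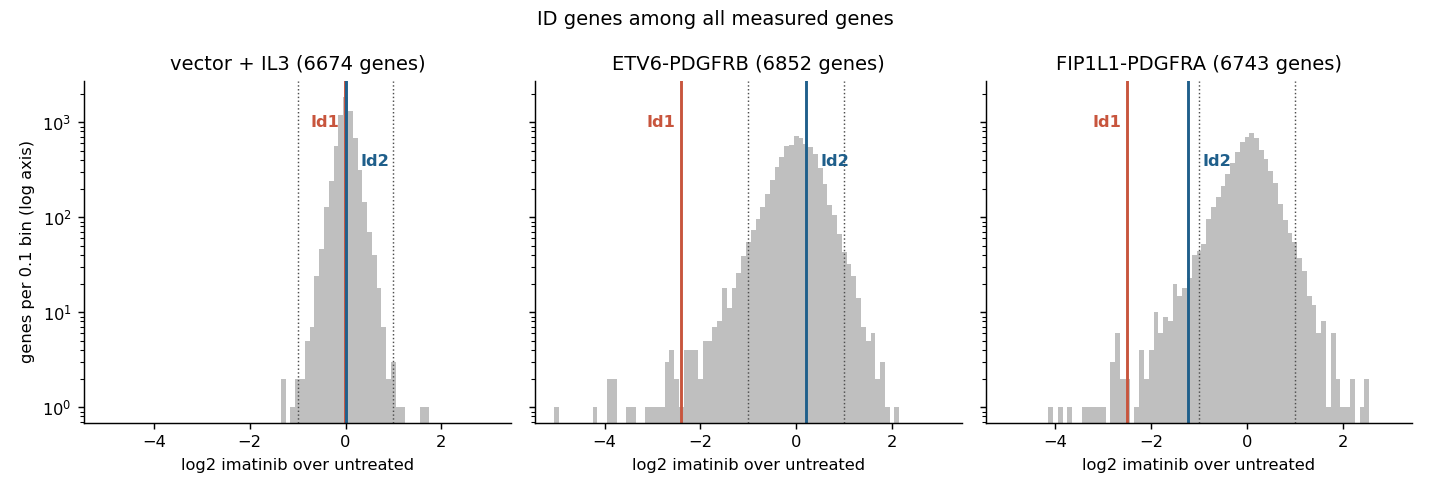
Histograms of the log2 ratio of imatinib over untreated signal for all measured genes of each line, in bins of 0.1 with a log count axis. Coloured lines mark Id1 and Id2, and dotted lines mark 2-fold. Id1 lies at -2.41 and -2.51 in the fusion lines, while Id2 lies at 0.21 in ETV6-PDGFRB and at -1.23 in FIP1L1-PDGFRA cells.

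Promoter sequences were held for Id2 and Id3, 2 of the 3 members, in the RefSeq promoter table of GRCm38.p6. They are the only members with an entry in that table. No Id1 promoter was held, so the motif matches below do not bear on Id1. Each run covers the 250 bases before the annotated start, read 5′ to 3′ on the strand of the gene. Capitals mark matches to the motifs searched on both strands.

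Id2, chr12:25096093-25096342, minus strand: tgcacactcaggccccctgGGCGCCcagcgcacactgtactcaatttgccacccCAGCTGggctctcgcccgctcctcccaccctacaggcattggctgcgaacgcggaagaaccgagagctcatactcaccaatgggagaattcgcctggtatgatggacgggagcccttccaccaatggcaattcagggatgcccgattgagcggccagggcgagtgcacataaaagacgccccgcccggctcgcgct

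Id3, chr4:136143572-136143821, plus strand: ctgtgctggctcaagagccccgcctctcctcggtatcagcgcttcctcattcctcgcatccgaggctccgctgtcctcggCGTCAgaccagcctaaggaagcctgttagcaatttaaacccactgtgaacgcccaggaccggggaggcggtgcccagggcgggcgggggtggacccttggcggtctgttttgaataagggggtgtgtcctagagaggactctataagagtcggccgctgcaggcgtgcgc

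The Id2 promoter held 1 E-box, CANNTG, the motif that E proteins and other helix-loop-helix factors bind, at bases -196 to -191. E-boxes stood in 66.2% of 32536 promoters of the same length. It also held 1 GGCGCC, a GC-rich element bound by SMAD proteins, at -231 to -226, which 9.65% of promoters held. The Id3 promoter held 1 TGACG, the core of a cAMP response element, read on the opposite strand at -170 to -166, against 17.9% of promoters. Neither held the STAT motif TTCNNNGAA, found in 7.04% of promoters, and neither held GTCTAGAC, TGACGTCA or GCGTGGGCG. The marked matches did not overlap each other. Both sequences were 62.8% G and C, against a median of 52.4%.

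Without imatinib, Id2 was below its IL3-grown level in both fusion lines, and Id1 was so in ETV6-PDGFRB cells. Id2 was 2.95-fold lower in ETV6-PDGFRB cells, at 62.6 against 185, the 9th lowest ratio of 6790 genes. A ratio at least 2-fold lower was seen for 0.736% of genes in that comparison. In FIP1L1-PDGFRA cells Id2 was 1.44-fold lower, at 129 against 185. There the second probe set gave 2.26-fold, and 0.327% of genes were at least 2-fold lower. In ETV6-PDGFRB cells the probe sets gave 2.95-fold and 3.05-fold.

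Id1 differed less between untreated lines, 1.57-fold lower in ETV6-PDGFRB cells. In FIP1L1-PDGFRA cells it was 1.16-fold lower than in IL3-grown cells, with a log2 ratio of -0.21 that was 0.036 with scaling to the hybridization controls. That scaling moved the median log2 ratio of all genes in this comparison from -0.03 to 0.21, so Id1 stayed below the median of all genes. Selection, IL3 supply and the fusion gene cannot be told apart in the untreated comparisons, which share the vector array. Between the untreated fusion lines, Id2 was 2.06-fold lower in ETV6-PDGFRB than in FIP1L1-PDGFRA cells and Id1 was 1.35-fold lower. For that pair 0.752% of genes were at least 2-fold lower.

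Of 11 mast cell markers 5 exceeded the floor on some array, and for 4 of these both ETV6-PDGFRB arrays, where Id2 was already low untreated, lay above the other 4 arrays. Cma1, a mast cell chymase gene, read 2574 and 3615 in ETV6-PDGFRB cells and 113 to 313 on the other 4 arrays. Cpa3, a mast cell carboxypeptidase gene, read 814 and 1060 there and 94.7 to 168 elsewhere. Hdc, the histamine synthesis gene, read 64.9 and 44.9 there and at most 25.1 elsewhere, and the mast cell protease gene Mcpt4 exceeded the floor only there, at 33.2 and 54.9. The transcription factor gene Gata2, also of the list, overlapped between the lines, at 567 and 772 in ETV6-PDGFRB cells and 353 to 743 elsewhere. The summed signal of all 11 mast markers was 4067 and 5581 in ETV6-PDGFRB cells and 607 to 1167 elsewhere. The defining markers Kit, Fcer1a, Ms4a2 and Tpsb2 were below the floor on every array. Markers of other lists also set ETV6-PDGFRB cells apart. Acta2, of the fibroblast and endothelial list, read 462 and 298 there and 36.5 to 56.2 elsewhere. Cd3g, a lymphoid marker, exceeded the floor only there, at 21.9 and 20.5. Adgre1 and Fcgr3 of the myeloid list and the endothelial Pecam1 read lower there than elsewhere, Adgre1 at 61.4 and 46.2 against 174 to 305. The part of any of these marker genes in the Id2 result was not tested.

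With imatinib in every line, Id1 had the lowest ratio of all genes in both fusion lines against IL3-grown vector cells. It was 8.28-fold lower in ETV6-PDGFRB cells, first of 6846 genes, and 6.58-fold lower in FIP1L1-PDGFRA cells, first of 6758. At least 2-fold lower were 3.72% and 2.38% of genes. These comparisons share the treated vector array. Id1 remained first under the floor at the 60th percentile, the pseudocount and the 3 other scalings, and ranked 2nd and 4th with the floor at the 40th percentile. Id2 was 2.57-fold lower in treated ETV6-PDGFRB cells, 95th from the lowest, and 3.39-fold lower in treated FIP1L1-PDGFRA cells, 21st from the lowest. The treated fusion lines differed by 0.33 on the log2 scale for Id1, lower in ETV6-PDGFRB, and by 0.40 for Id2, higher in ETV6-PDGFRB, where 0.606% and 0.665% of genes passed 2-fold in those directions.

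Ordered by level, Id1 ran from the IL3 arrays through untreated FIP1L1-PDGFRA and untreated ETV6-PDGFRB to the treated fusion arrays. Neighbours were set beside the central 95% of IL3-pair ratios at their signal, with no test. Since the range comes from the IL3 pair itself, the place of the IL3 arrays in it carries no information. It also holds no difference between lines. The 2 IL3 arrays lay inside that range, and so did the 2 treated fusion arrays, with a step of -0.33. Untreated FIP1L1-PDGFRA lay just outside it, with a step of -0.21 below the IL3 arrays. The steps to untreated ETV6-PDGFRB, -0.43, and on to treated FIP1L1-PDGFRA, -2.07, lay outside it. For Id2, the IL3 arrays again lay inside the range, and so did the 3 lowest arrays, whose steps were -0.21 and -0.19. The steps down to untreated FIP1L1-PDGFRA, -0.52, and to treated ETV6-PDGFRB, -0.83, lay outside the range.

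The profiles of Id1 and Id2 over the 6 arrays correlated at r = 0.771, which put Id2 at rank 316 for likeness to Id1 among 1122 genes that varied at least 2-fold. Highest for Id1 was Polr1b, a subunit gene of RNA polymerase I, at r = 0.9995. Next came Rrs1, a ribosome assembly gene, at 0.998, and Prmt6, an arginine methyltransferase gene, at 0.998. Nifk and Gnl3, which encode nucleolar proteins, both reached 0.997. Untreated and treated, Polr1b read 154 and 157 with IL3, 117 and 41.5 with ETV6-PDGFRB, then 135 and 47.9 with FIP1L1-PDGFRA. Its drop was smaller than that of Id1, with log2 ratios of -1.50 in both fusion lines. By root mean square distance, which also weighs the size of the changes, the closest were the chloride transporter gene Clcn5, at 0.23, and Tnfrsf12a, a TNF receptor family gene, at 0.29. Tnfrsf12a read 7.84 on the treated FIP1L1-PDGFRA array, below the floor, and was raised to it there. The arrays are few and share lines and treatments, so the correlations and distances are a description without a p-value.

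Closest to Id2 was Mtm1, a lipid phosphatase gene, at r = 0.980, followed by Knop1 at 0.976. Rcor2, a corepressor gene, and Rcc1, which acts on the RAN GTPase, came next at 0.964 and 0.963. Aqp9, a channel for water and glycerol, reached 0.962. Mtm1 read 169 and 148 with IL3, 80.7 and 77.5 with ETV6-PDGFRB, then 113 and 61.2 with FIP1L1-PDGFRA. By distance Aqp9, Mtm1, Knop1 and Rcor2 were again among the 5 closest. Aqp9 read 26.1 untreated and 4.52 with imatinib in ETV6-PDGFRB cells, where Id2 read 62.6 and 72.3. The 4.52 was raised to the floor, so the likeness of Aqp9 to Id2 rests partly on flooring.

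**Figure D3:**
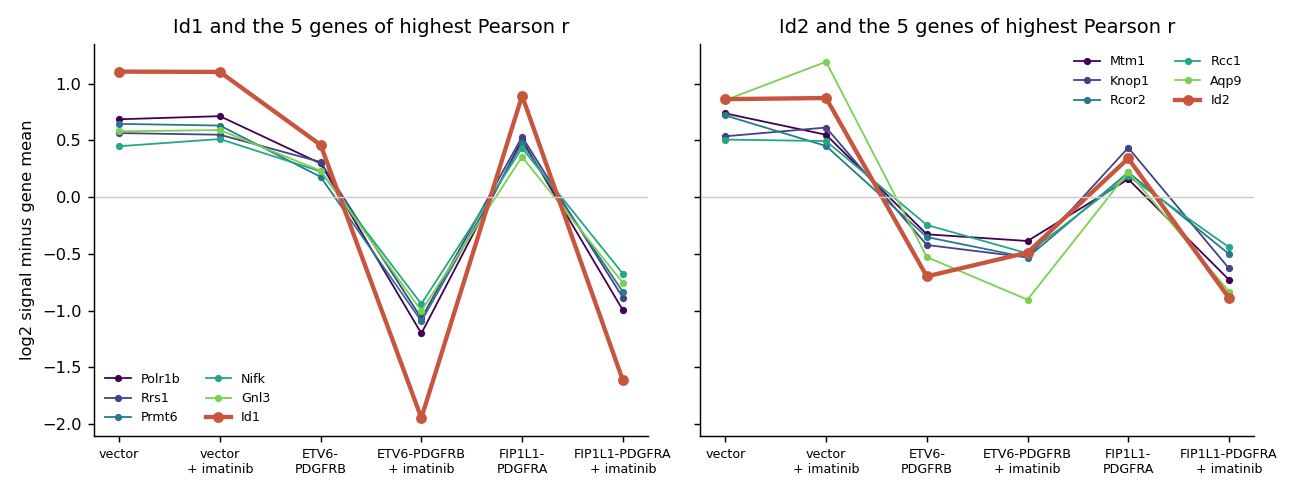
Log2 signal minus each gene's own mean over the 6 arrays, for Id1 (left) and Id2 (right) as thick lines and the 5 genes of highest Pearson r as thin lines. The Id1 group is low on both treated fusion arrays, and the Id2 group is low on both ETV6-PDGFRB arrays and on treated FIP1L1-PDGFRA. Polr1b lies closest to Id1 in shape, at r = 0.9995.

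For genes around the ID proteins, a limma fit over all 6 arrays treated both fusion lines as repeats. In it 916 of 6808 genes (13.5%) rose and 841 (12.4%) fell with imatinib at adjusted p under 0.05. With scaling to the hybridization controls the split was 305 and 2092. Its p-values rest on how far the fusion lines differ and on the IL3 pair, since no culture was repeated. The log2 change it gives is the mean of the fusion lines, not a difference from the IL3 pair. All 21 calls among the genes named below were lost with either fusion pair left out and without the filter on low signals. The fits without a fusion pair had 1 residual degree of freedom and passed no gene at all. That loss is therefore not particular to the named genes. Without the filter 48 of 12393 genes rose and 59 fell. With the 4 fusion arrays alone 7 of the 21 calls were lost, namely Anapc2, Cdc20, Cdk2, Fzr1, Rb1, Skil and Tgfbr2. The floor at the 40th percentile also lost 7, with Stat5b in place of Fzr1. Scaling to the mean of all probe sets lost Anapc2, Cdc20, Cdk2, Rb1 and Tgfbr2.

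The E protein genes, whose products the ID proteins hold, were above the floor, and none of the 3 tested passed: 0 rose and 0 fell. At an unadjusted limma p under 0.05 the count was 0 as well, where 23.5% of all genes tested rose and 19.1% fell. Tcf12 read 310 and 335 with IL3, 383 and 410 with ETV6-PDGFRB, then 354 and 290 with FIP1L1-PDGFRA (log2 change -0.10 ± 0.13, SE, limma adjusted p = 0.593). Tcf3 had log2 ratios of 0.36 and -0.20 in the fusion lines (adjusted p = 0.709), and Tcf4 of -0.0025 and 0.08 (adjusted p = 0.809). Both changed sign with scaling to the hybridization controls. The list medians were 0.10 and -0.20, against 0.03 and 0.05 over all genes.

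Other helix-loop-helix factors that pair with E proteins, listed with the bridging genes Lmo2 and Ldb1, were mostly below the floor, 26 of 30 on the array. Over the whole array 7018 of 12393 genes exceeded it at least once. Of the 4 tested, the blood factor genes Tal1 and Lyl1 and the bridging genes Lmo2 and Ldb1, 0 rose and 0 fell in limma, and 1 did at an unadjusted p under 0.05. Among HES, HEY and BHLHE repressors 2 were tested and 0 passed, against 2 at an unadjusted p under 0.05. At that unadjusted limma p, 23.5% of all genes tested rose and 19.1% fell. Bhlhe40, a repressor of the same fold, was 2.66-fold lower in FIP1L1-PDGFRA cells, at 320 before and 120 after, and 1.32-fold lower in ETV6-PDGFRB cells (limma adjusted p = 0.0551). It passed under 5 alternatives, at adjusted p of 0.0381 with the floor at the 60th percentile, 0.0342 with the pseudocount, 0.0483 with mean scaling, 0.0499 with quantile normalization and 0.00649 with scaling to the hybridization controls.

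Partners of ID proteins outside the E protein family rose in 6 of 8 cases and fell in 1. Of all genes tested 13.5% rose and 12.4% fell. The list medians were 0.47 and 0.41 in the fusion lines and 0.03 in the IL3 pair. Over all genes the medians were 0.03, 0.05 and 0.01. The pocket protein gene Rbl2, of the retinoblastoma family, rose by 1.04 ± 0.12 (SE, limma adjusted p = 0.00801), from 93.1 to 168 and from 64.4 to 151. Its relatives Rbl1 (0.64 ± 0.09, adjusted p = 0.0131) and Rb1 (0.45 ± 0.11, adjusted p = 0.0431) rose as well. Of the ETS factor genes, Elk3 rose by 0.67 ± 0.11 (adjusted p = 0.0153) and Ets2 fell by 0.58 ± 0.09 (adjusted p = 0.014). With scaling to the hybridization controls Rb1, Rbl1 and Elk3 lost their calls, and Rbl2 kept its call, at 0.76 (limma adjusted p = 0.00551). Elk4 (0.39) and Srebf1 (0.37), the other genes of the list that rose, changed by less than these and were not followed under that scaling. The count of 6 therefore depends on the scaling.

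Many BMP pathway genes gave no signal above the floor, which 7018 of all 12393 genes exceeded on at least 1 array. Of 16 ligand and antagonist genes 14 were below the floor on every array, and of the 2 tested, 0 passed limma, with or without adjustment. Among receptors and SMADs 12 of 21 were below it, including the BMP receptor genes Bmpr1a, Bmpr1b and Bmpr2 and the BMP effector gene Smad1. Smad5, another BMP effector, read 29.1 and 27.2 with IL3, 16.8 and 29.2 with ETV6-PDGFRB, then 30.2 and 20.1 with FIP1L1-PDGFRA. It was at least 1.45-fold higher with imatinib in the first fusion line, and its log2 ratio in the other was -0.59 (limma adjusted p = 0.958). Of 8 receptors and SMADs tested, the TGF-beta receptor gene Tgfbr2 rose by 0.48 ± 0.12 (adjusted p = 0.0409) and the SMAD corepressor gene Skil fell by 0.44 ± 0.10 (adjusted p = 0.0357). Of all genes tested 13.5% rose and 12.4% fell. The log2 ratio of Tgfbr2 was also positive in the IL3 pair, at 0.26, against 0.43 and 0.54 in the fusion lines. Tgfbr2 lost its call with scaling to the hybridization controls.

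Transcription factors known to act at Id genes split in direction: 5 of 19 rose, 3 fell and 11 did not pass. Of all genes tested 13.5% rose and 12.4% fell. The list medians were 0.11 and 0.08, near those of all genes. Srf, the serum response factor gene, fell by 1.37 ± 0.10 (limma adjusted p = 0.00373), from 167 to 59.7 with ETV6-PDGFRB and from 167 to 69.7 with FIP1L1-PDGFRA. Myc, a growth regulator gene, fell by 1.71 ± 0.12 (adjusted p = 0.00383). The STAT5 genes went the other way. Stat5a rose by 0.68 ± 0.12 (adjusted p = 0.0179), from 124 to 175 and from 88.7 to 161, and Stat5b by 0.71 ± 0.15 (adjusted p = 0.0267). In the IL3 pair the log2 ratios of Stat5a and Stat5b were 0.08 and 0.29. Both lost the call with scaling to the hybridization controls, at adjusted p of 0.064 and 0.083. Gata1, a factor of red and mast cells, rose by 0.91 ± 0.14 (adjusted p = 0.0141), and Foxo3 rose by 0.73 ± 0.10 (adjusted p = 0.0103), but by 0.26 with adjusted p = 0.203 when its probe sets were averaged.

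Target genes of E proteins rose in 4 of 8 cases and fell in 1, while 19 of 28 on the array were below the floor. That floor was exceeded on at least 1 array by 7018 of all 12393 genes. Of all genes tested 13.5% rose and 12.4% fell. Cxcr4, a chemokine receptor gene, rose by 1.80 ± 0.28 (limma adjusted p = 0.0138), from 360 to 826 and from 138 to 725. The cell cycle inhibitor gene Cdkn1b rose by 1.23 ± 0.21 (adjusted p = 0.018), with a log2 ratio of -0.63 in the IL3 pair. When its probe sets were averaged it rose by 0.37 (adjusted p = 0.0386). Cd79b rose by 0.81 ± 0.09 (adjusted p = 0.00805). Cdkn1a, the p21 inhibitor gene and a target that E proteins activate, fell by 1.10 ± 0.09 (adjusted p = 0.00449). Cdk6, a G1 kinase gene, was 2.52-fold lower in ETV6-PDGFRB and 1.06-fold lower in FIP1L1-PDGFRA cells (adjusted p = 0.146, and 0.0296 with scaling to the hybridization controls). The B-lineage targets Ebf1, Pax5, Rag1 and Rag2 were below the floor.

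Genes that set ID protein stability rose in 4 of 10 cases and fell in 0, against 5 and 1 at an unadjusted limma p under 0.05. Of all genes tested 13.5% rose and 12.4% fell, against 23.5% and 19.1% at that unadjusted p. Among those that rose were Fzr1 (0.50 ± 0.10, limma adjusted p = 0.0236) and Cdc20 (0.40 ± 0.10, adjusted p = 0.0395), activators of the anaphase-promoting complex. The complex subunit gene Anapc2 (0.34 ± 0.09, adjusted p = 0.0449) and the kinase gene Cdk2 (0.39 ± 0.09, adjusted p = 0.0353) also rose. All 4 lost the call with scaling to the hybridization controls, with log2 changes of 0.06 to 0.22.

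**Figure D4:**
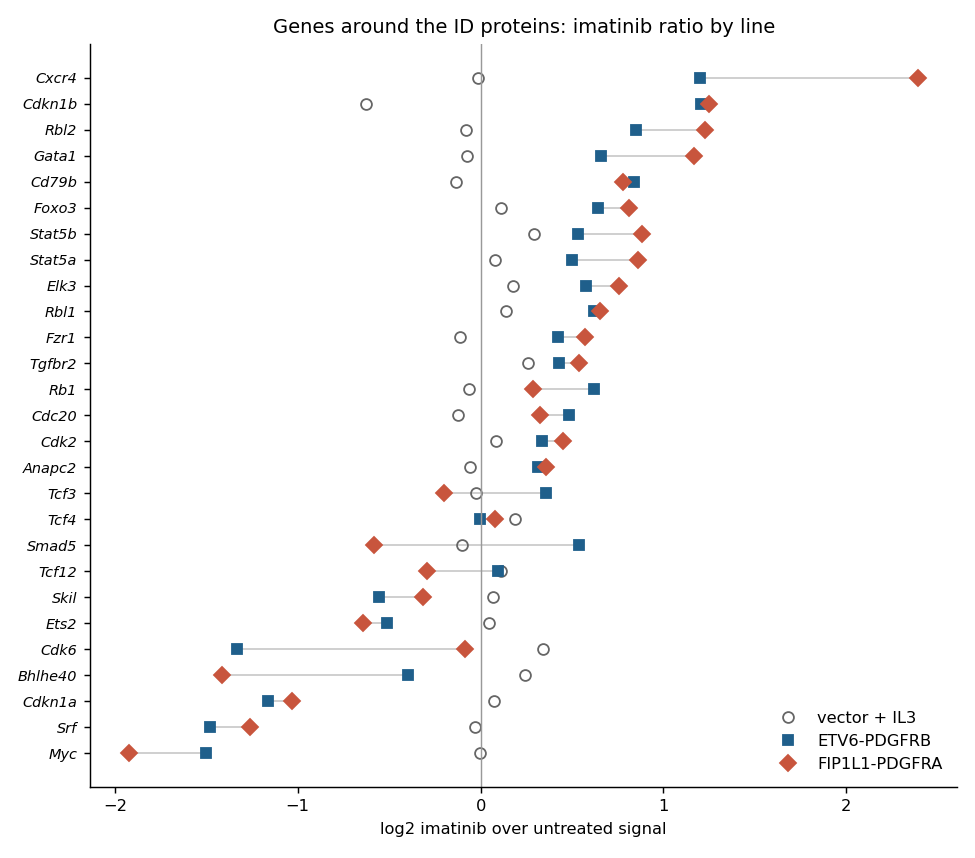
Log2 ratio of imatinib over untreated signal for the named genes around the ID proteins in the IL3 pair (open circles), ETV6-PDGFRB (squares) and FIP1L1-PDGFRA cells (diamonds), sorted by the mean of the fusion lines. Myc lies lowest at -1.50 and -1.92, the E protein genes lie between -0.29 and 0.36, and Cxcr4 lies highest at 1.20 and 2.39.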

How the data were processed

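RNA from 6 Ba/F3 samples was labelled, 5 µg each, and hybridised to Affymetrix mouse arrays. The deposited values were linear intensity signals, for which the submitters' processing notes name GCOS 1.4.0 and MAS5 as the tools of the authors. The genome build is not given in the sources used here. Signals appeared scaled to a common level, with a mean of 100.04 on every array after trimming 2% at each end. The number of arrays limits the precision.

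Gene symbols came from the platform table: 20393 probe sets had 1 symbol, 691 several and 1606 none. The brightest probe set by mean log2 of the deposited signals stood for its gene. Signals below the floor were then raised to the floor. A ratio needs 1 array above the floor, and where the other is below it, the fold is a lower bound. No ratio of single arrays was tested, and calls of 2-fold are counts.

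limma 3.58.1 (R 4.3.3) was fitted to the log2 signals of the 6808 genes that exceeded the floor on 2 or more arrays. It had the line as a block, 1 coefficient for imatinib in fusion cells, 2 residual degrees of freedom and Benjamini-Hochberg adjustment. Floored signals have no scatter, which makes their p too small. Figures and ratios used Python 3.11.15, numpy 2.4.6 and pandas 2.3.3.

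The members and the 16 gene lists were chosen with earlier results of these data known. Named genes were the members, up to 5 per list that passed limma or 2-fold in a fusion line, ranked by mean change, and 8 fixed genes of the E protein, STAT5, SMAD and ID families. Likeness was taken as the 5 highest Pearson r. Alternatives covered the floor, a pseudocount of 16, 3 scalings, other probe sets and the arrays fitted. For imatinib in limma, 1 of 3 myeloid markers and 1 of 2 fibroblast and endothelial markers fell. Of 4 erythroid markers 3 rose and 1 fell. Of mast markers 3 of 5 rose, of pro-B markers 1 of 5 rose, and 0 of 1 lymphoid marker passed. Of all genes tested 13.5% rose and 12.4% fell.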

Additional observations from a re-analysis of the deposited data

Results flagged for a closer look

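With the deposited scaling, the imatinib ratio of Id2 had opposite signs in the fusion lines on its main probe set. The log2 ratio was 0.21 in ETV6-PDGFRB cells, from 62.6 to 72.3, and -1.23 in FIP1L1-PDGFRA cells, from 129 to 54.8, a difference of 1.44. It drew attention because the array of each line moved the opposite way. The value of 0.21 lies inside the central 95% of IL3-pair ratios at such signals, -0.40 to 0.45, and with scaling to the hybridization controls both ratios were negative, -0.096 and -1.49. The difference was not tested, since each group holds 1 array. On the second probe set both lines were lower with imatinib, with both treated arrays below the floor.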

How the results depend on the processing

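The limma fit already pairs the untreated and imatinib arrays of each line through its line block. A further block by replicate number could not be made, because each group holds 1 array and the labels give no replicate numbers. The 20 ratios and differences of Id1 and Id2 were recomputed in 129 combinations with an alternative, and 102 moved by less than the SD of the IL3 pair, 0.19. Both alternative floors left all 20 unchanged by construction, since the signals used exceeded them on every array. Mean scaling and quantile normalization kept all 20 within that SD. Scaling to the hybridization controls moved 12 of 20 by more, the pseudocount 8 of 20, and the second Id2 probe set 7, with 2 within it. Direction held in 123, and no ratio past 2-fold changed sign. A scaling by 1 factor per array shifts all genes of a comparison alike, and a pseudocount shrinks ratios. The difference between probe sets was not tested. With the pseudocount, the Id1 imatinib ratio was -2.09 for ETV6-PDGFRB and -2.25 for FIP1L1-PDGFRA, and -2.71 and -2.45 against treated vector cells. Id2 was then -1.03 with imatinib in FIP1L1-PDGFRA cells, -1.35 in untreated ETV6-PDGFRB and -1.51 in treated FIP1L1-PDGFRA cells against vector cells, with a difference between fusion lines of 1.20.

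Scaling to the hybridization controls moved the median log2 ratio of all genes with imatinib to -0.26 in ETV6-PDGFRB, -0.20 in FIP1L1-PDGFRA and 0.10 in IL3-grown cells. The imatinib ratios became -2.71 and -2.76 for Id1 and -0.096 and -1.49 for Id2. Untreated FIP1L1-PDGFRA over vector was 0.036 for Id1 and -0.27 for Id2. Untreated ETV6-PDGFRB over FIP1L1-PDGFRA was -0.69 and -1.30, the treated pair -0.64 and 0.091, and treated ETV6-PDGFRB over vector -3.46 and -1.77. The second probe set of Id2 gave -0.43 and -0.86 with imatinib, a difference of 0.43 between 2 bounds, -1.18 for untreated FIP1L1-PDGFRA over vector, -0.43 between untreated fusion lines, and -1.99 for each treated fusion line over vector.

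Genes 2-fold higher in ETV6-PDGFRB cells numbered 110, against 168 and 65 with floors at the 40th and 60th percentiles, 47 with the pseudocount and 29 with hybridization control scaling, which gave 432 lower genes against 196. In FIP1L1-PDGFRA cells 148 were higher, against 89 with the floor at the 60th percentile, 72 with the pseudocount and 61 with that scaling, which gave 374 lower against 200. In the IL3 pair 5 higher and 4 lower became 30 and 19 under the low floor (40th percentile), 2 and 0 under the high one, 8 and 2 with that scaling, and 16 and 14 with averaged probe sets. limma calls that rose and fell were 916 and 841, against 418 and 471 with the 4 fusion arrays, 48 and 59 without the filter, 588 rising with the floor at the 40th percentile, and 305 and 2092 with hybridization control scaling. With either fusion pair left out, with 1 residual degree of freedom, limma gave 0 and 0, with 1161 rising and 1006 falling at an unadjusted p under 0.05 without ETV6-PDGFRB, and 1222 and 1112 without FIP1L1-PDGFRA. Signals near the floor limit the second Id2 probe set and Id3.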

Other observations

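Lyl1, a blood factor gene of the helix-loop-helix class chosen here after its values were seen, had an order of lines like that of Id2 before the drug. Untreated and treated, it read 964 and 998 with IL3, 352 and 415 with ETV6-PDGFRB, then 596 and 624 with FIP1L1-PDGFRA. In contrast to Id2 in FIP1L1-PDGFRA cells, its imatinib ratio there was 0.07 on the log2 scale. No test was made.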
